A study of Mus musculus with 6 samples.

Results

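The 10 genes described here encode cytokines by which effector T helper cells act on other cells: *Il2*, *Il21*, *Il17a*, *Il17f*, *Il22*, *Ifng*, *Il3*, *Csf2*, *Il4*, and *Il13*. They were taken by name, with earlier results of these data known. Each symbol was matched to its Ensembl identifier among the 47643 genes of the deposited count table. Of the 10, *Il21*, *Il2*, *Ifng*, *Il17f*, and *Il22* reached 10 reads over the 6 samples and were tested, *Il3* and *Il17a* had 5 and 2 reads in all, and no read of *Il4*, *Csf2*, or *Il13* was counted in any sample.

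The samples were splenic CD4+ T cells sorted as *Nr4a3*-Blue+Red+ from Tg4 *Nr4a3*-Tocky *Il10*-GFP (Tiger) mice, 2 samples in each of 3 groups. All of the mice carried the Tg4 T cell receptor transgene, so that their T cells recognize a peptide of myelin basic protein (MBP), an *Il10* reporter, and a Timer protein driven by *Nr4a3*, a gene that T cell receptor signaling switches on. The Timer protein is blue when new and matures to red, so the sort selected cells with both recent and earlier *Nr4a3* activity. As a first dose, all were given the [4Y] form of the peptide (80 μg, no adjuvant), and 24 h later 800 μg of an isotype pool, anti-PD1 (29F.1A12), or anti-Lag3 (clone name spelled CB97W in the sample labels), then a second peptide dose of 8 μg 30 min after the antibody. Spleens were taken 4 h after the second dose. PD1 and Lag3 are inhibitory receptors of T cells, and the comparison asks how blocking either changes the response to re-challenge. A single receptor of fixed specificity, a priming without adjuvant, and a single early time limit what these samples can say of other T helper responses.

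Naive T helper cells acquire distinct cytokine programs as they respond to antigen. Th1 cells are known for interferon-γ, Th2 cells for IL-4 and IL-13, Th17 cells for IL-17A, IL-17F, and IL-22, and T follicular helper (Tfh) cells for IL-21, which acts on B cells. IL-2 is the T cell growth factor made early after receptor signaling, and IL-3 and GM-CSF (encoded by *Csf2*) act on myeloid cells. Most of these genes are switched on through the calcium-dependent factor NFAT together with AP-1 (Fos and Jun proteins), and the lineage is set by further factors such as RORγt and RORα for Th17 cells.

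The cytokine genes lie in neighboring groups on GRCm38. *Il21* (chr3:37222759-37232636, minus strand) and *Il2* (chr3:37120523-37125959, minus strand) are 96.8 kb apart with no coding gene between them. *Il17a* (chr1:20730905-20734496, plus strand) and *Il17f* (chr1:20777146-20790617, minus strand) are 42.6 kb apart and are read in opposite directions. The Th2 pair *Il4* (chr11:53602982-53618669) and *Il13* (chr11:53631324-53634702) and the myeloid growth factor pair *Csf2* (chr11:54247271-54249667) and *Il3* (chr11:54265303-54267277) are all on the minus strand of the same chromosome. *Ifng* (chr10:118441046-118445892, plus strand) and *Il22* (chr10:118204942-118210047, plus strand) are 231 kb apart.

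The 250 bases before the transcription start of *Il21*, *Il2*, *Il17f*, and *Il17a* are shown, from RefSeq (GRCm38.p6), because *Il21* and *Il17f* carry the called differences and *Il2* and *Il17a* are the nearest to them of the 10 genes. The RefSeq start of *Il17f* lies inside the longer gene model of GENCODE, so its window is within the gene as annotated there. Each is written 5′ to 3′ on the strand of its gene, with matches to the NFAT core GGAAA, on either strand, in capitals.
Il21 (chr3:37232637-37232886, minus strand): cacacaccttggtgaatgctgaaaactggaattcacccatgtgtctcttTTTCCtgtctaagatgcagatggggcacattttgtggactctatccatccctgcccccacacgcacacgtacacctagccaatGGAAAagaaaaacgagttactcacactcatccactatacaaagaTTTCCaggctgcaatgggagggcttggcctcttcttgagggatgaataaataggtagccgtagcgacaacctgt
Il2 (chr3:37125955-37126204, minus strand): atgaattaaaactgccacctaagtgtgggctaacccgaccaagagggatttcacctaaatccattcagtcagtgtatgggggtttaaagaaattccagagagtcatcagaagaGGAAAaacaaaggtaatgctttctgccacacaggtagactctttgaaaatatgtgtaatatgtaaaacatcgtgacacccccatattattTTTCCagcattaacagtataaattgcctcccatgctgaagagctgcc
Il17f (chr1:20784271-20784520, minus strand): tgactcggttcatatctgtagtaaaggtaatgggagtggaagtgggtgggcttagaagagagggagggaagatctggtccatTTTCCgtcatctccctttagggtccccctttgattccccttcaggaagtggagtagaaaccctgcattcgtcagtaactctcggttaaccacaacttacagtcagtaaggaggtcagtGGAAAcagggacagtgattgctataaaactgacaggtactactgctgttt
Il17a (chr1:20730655-20730904, plus strand): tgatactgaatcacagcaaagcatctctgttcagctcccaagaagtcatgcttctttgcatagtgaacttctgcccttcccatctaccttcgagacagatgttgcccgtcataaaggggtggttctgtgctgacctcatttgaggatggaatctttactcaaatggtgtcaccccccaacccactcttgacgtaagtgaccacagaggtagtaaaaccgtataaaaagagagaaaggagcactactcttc
The NFAT core occurred 3 times before *Il21*, 2 times before *Il2*, and 2 times before *Il17f*, and it was not in the window of *Il17a*. A window was found for all 10 genes, with a further window for *Il4* that lacked the NFAT core. For 9 of the 10 genes a window held the NFAT core, as did 55.6% of 32851 mouse promoters read over the same 250 bases. Genes with more than 1 window were counted by any of them, whereas each window counted separately in that share. The AP-1 site TGANTCA was found for 1 of the 10 (*Il17a*) and in 6.75% of all promoters. The ROR core AGGTCA was found for both *Il17a* and *Il17f*, for no other of the 10, and in 14.0% of all promoters, and the TATA box TATAAA for 6 of the 10 and in 12.4% of all promoters. In *Il17f*, the NFAT core at −50 and the ROR core at −58, counted from the start, lay beside each other without overlapping. These are matches of letters and not sites shown to be bound.

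Libraries were made with a 3′ kit that gives about 1 read per transcript, and 2107715 to 2648920 reads were counted per sample, so that 3 reads amount to 1.13 to 1.42 CPM, the reads of a gene brought to a common total per sample. *Gm42418* took 17.4% to 21.0% of the reads of each sample. The 7 markers of CD4 T cells, *Nr4a3* among them, were all detected, with a summed level of 1258 to 1356 CPM with isotype, 1096 to 1226 CPM with anti-PD1, and 1291 to 1403 CPM with anti-Lag3. Summed markers of other cells were low, and 4 lists were higher in both isotype samples than in all antibody samples. The share of all genes in that order is not given here. The 8 B cell markers (*Cd79a* at 0) summed to 23.2 to 26.2 CPM with isotype against 8.70 to 11.4 with anti-PD1 and 5.17 to 7.93 with anti-Lag3. The 10 macrophage and dendritic cell markers (*Clec9a* at 0) summed to 56.7 to 58.4, 18.0 to 32.3, and 34.1 to 38.1 CPM, respectively. Single markers did not all follow their sum: *Cd68* was higher with anti-PD1 (5.69 and 3.73 CPM) than with isotype (2.71 and 2.00 CPM). The 2 CD8 T cell markers summed to 48.0 to 52.5, 30.2 to 34.2, and 33.2 to 34.5 CPM. The 4 neutrophil markers summed to 7.69 to 21.2, 6.21 to 7.59, and 1.51 to 5.60 CPM, so isotype and anti-PD1 nearly touched. These 4 lists were highest with isotype, and the part of such cells in the results was not tested. CD8 T cells can make *Ifng* and *Il2*. Of their markers, *Cd8b1* (28.2 to 47.5 CPM) was above both cytokines in every sample, whereas *Cd8a* was at 2.07 to 6.79 CPM. Marker levels do not give the source of a cytokine, which was not tested. Markers of NKT cells, mast cells and basophils, NK cells, and γδ T cells were near or at 0: *Zbtb16* of NKT cells had no read, 5 of 7 mast cell and basophil markers had none, the 5 NK cell markers (*Klra8* and *Klre1* at 0) summed to at most 3.31 CPM, and the 4 γδ T cell markers to at most 7.69 CPM.

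Together, the 10 genes had 74 and 43 reads with isotype, 242 and 194 with anti-PD1, and 128 and 145 with anti-Lag3. The anti-PD1 samples were thus highest and the isotype samples lowest, with no overlap between any 2 groups. *Il21* made up 45.9% to 56.2% of these reads in every sample, so the sum largely followed this gene. Both anti-PD1 samples lay above both isotype samples for 5 of the 10 genes (*Il21*, *Il2*, *Il17f*, *Il22*, and, at 2 reads each, *Il3*), an order found for 21.7% of the 11877 genes tested. Both anti-Lag3 samples lay above both isotype samples for *Il21* and *Il2* (22.2% of all genes), and both anti-PD1 samples above both anti-Lag3 samples for *Il21*, *Il17f*, *Il22*, and *Il3* (16.4% of all genes). Only *Il21*, *Il2*, and *Ifng* had reads in both isotype samples, and none of them was lower in both samples of an antibody group than in both isotype samples. The other genes had 0 reads in an isotype sample, so they could not have been lower in this sense. *Il17f* and *Il22* entered the tests through the antibody groups alone, since they had at most 2 reads in any isotype sample, so counts over the 5 tested genes are not independent of their direction.

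**Figure D1:**
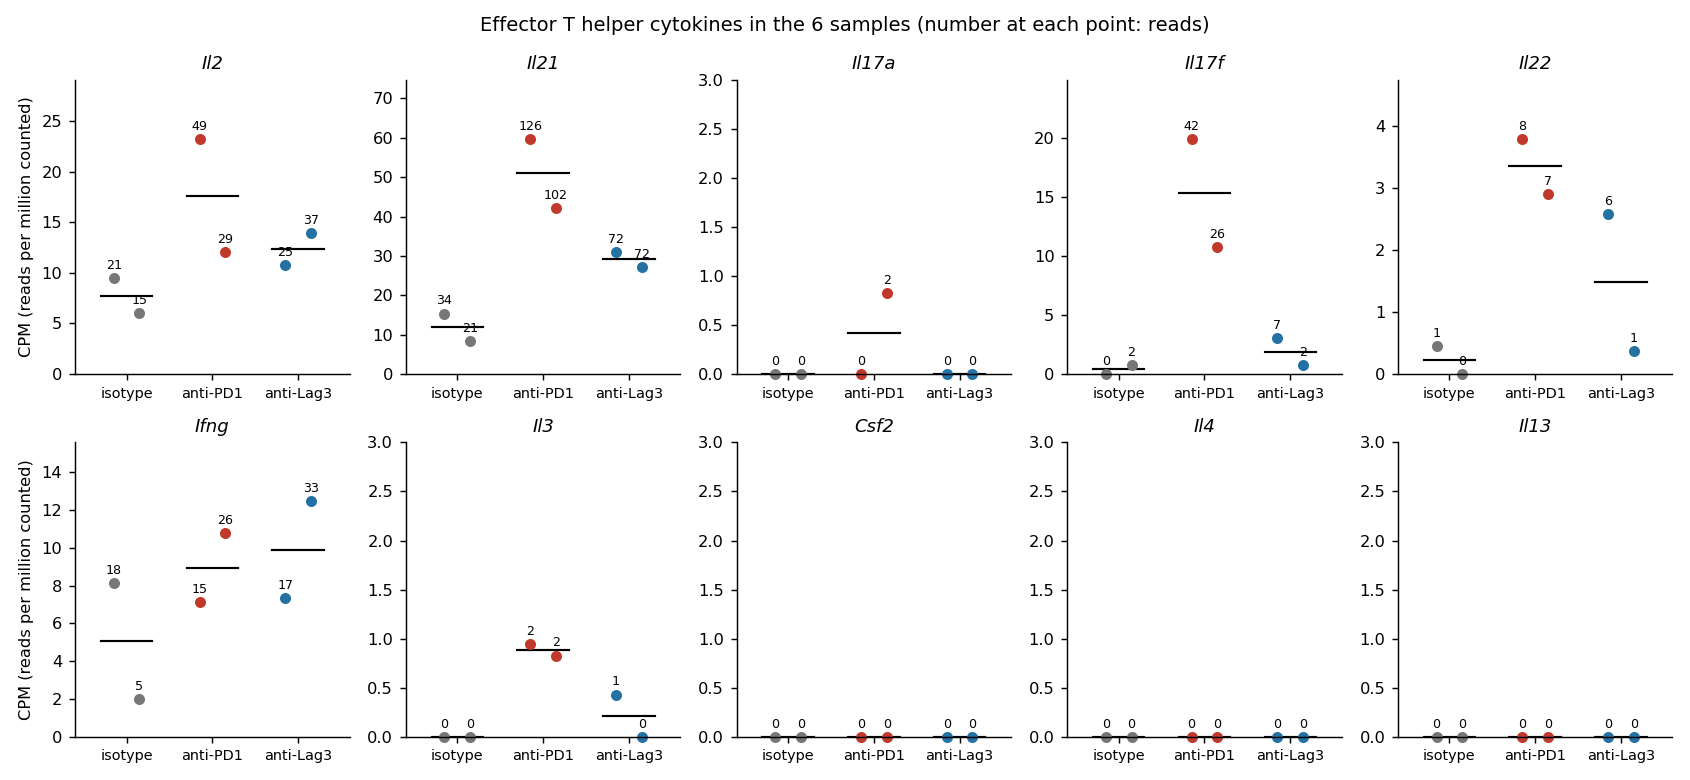
Level of each of the 10 cytokine genes, in CPM on the vertical axis (each panel has its own scale from 0), in the 2 isotype (gray), 2 anti-PD1 (red), and 2 anti-Lag3 (blue) samples. Points are samples, replicate 1 to the left, with their reads written above, and black bars are group means. *Il21* had the most reads (126 and 102 with anti-PD1), and *Csf2*, *Il4*, and *Il13* had 0 reads in all 6 samples.

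In the quasi-likelihood test of edgeR, with p-values adjusted over the 11877 genes by the Benjamini-Hochberg method, 2 of the 10 cytokines, *Il21* and *Il17f*, rose with anti-PD1 relative to isotype at an adjusted p under 0.05, against 0.631% of all genes tested called higher. With anti-Lag3, none of the 10 was called against isotype, where 0.0253% of all genes were called higher and 710 genes had an unadjusted p under 0.05, *Il21* among them and the other 4 tested cytokines not. Between the antibodies, *Il17f* was higher with anti-PD1, against 0.253% of all genes called higher. None was called lower in any comparison. The comparisons share their samples in pairs (both antibody groups were set against the same isotype samples), so that they are not independent of each other. In bulk samples, fewer cells of a type and less RNA per cell cannot be told apart.

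*Il21* was the most abundant of these cytokines in every group. Its level was 15.4 and 8.39 CPM with isotype (34 and 21 reads), 59.8 and 42.3 CPM with anti-PD1 (126 and 102 reads), and 31.0 and 27.2 CPM with anti-Lag3 (72 reads in each). The 3 groups did not overlap, with anti-PD1 highest and isotype lowest. Group means were 11.9 ± 4.94 CPM with isotype, 51.0 ± 12.4 with anti-PD1, and 29.1 ± 2.73 with anti-Lag3 (SD, n = 2 each), and the mean lay above that of 44.0%, 74.6%, and 62.0% of tested genes, respectively. In the fit, *Il21* was 4.20-fold higher with anti-PD1 than with isotype (95% interval 2.77 to 6.37, log2 fold change 2.07, SE 0.30, adjusted p = 1.5e-05 by edgeR), and its p-value ranked 15 of all genes.

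With anti-Lag3, *Il21* was 2.36-fold higher than with isotype (95% interval 1.53 to 3.64, log2 fold change 1.24, SE 0.31), with an unadjusted p of 0.00026 and an adjusted p of 0.280 by edgeR, so the difference did not pass the correction although both anti-Lag3 samples were higher. Its p-value ranked 11 in that comparison. The call was gained without isotype replicate 1, the higher of the isotype samples (log2 fold change 1.75, adjusted p = 0.030 by edgeR), and with every gene of at least 1 read tested (adjusted p = 0.047). Over the settings tried, its adjusted p ranged from 0.030 to 1.00. *Il21* was 1.78-fold higher with anti-PD1 than with anti-Lag3 (95% interval 1.23 to 2.58, adjusted p = 0.310 by edgeR), which also did not pass the correction. The 3 groups were thus in the same order in every sample, and the difference between the highest and the lowest group was the one that passed the test.

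*Il17f*, which encodes a cytokine of Th17 cells that draws neutrophils to epithelia, was nearly undetected with isotype. It had 0 and 2 reads with isotype, 42 and 26 with anti-PD1, and 7 and 2 with anti-Lag3. These are 0 and 0.799, 19.9 and 10.8, and 3.02 and 0.755 CPM. Both anti-PD1 samples were above all 4 other samples, and the isotype and anti-Lag3 samples overlapped, each of these groups having a sample with 2 reads. The reads summed per group were 35.4 times as frequent with anti-PD1 as with isotype (exact 95% interval 9.44 to 299, from 68 and 2 reads). They were 8.30 times as frequent as with anti-Lag3 (4.13 to 18.9, from 68 and 9 reads). These intervals rest on reads pooled over the samples of a group, so they cover counting error only and leave out the spread between samples. PCR copies were also not told apart.

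In the fit, *Il17f* had the largest log2 fold change of the 5 tested cytokines between anti-PD1 and isotype (4.99, SE 0.85, adjusted p = 0.00030 by edgeR), a size that depends on how the fit treats the isotype sample without reads. The call was lost without anti-PD1 replicate 1, the higher of the anti-PD1 samples (log2 fold change 4.48, adjusted p = 0.094 by edgeR), and in limma-voom (4.84, adjusted p = 0.077). Against anti-Lag3 the log2 fold change was 3.05 (SE 0.67, adjusted p = 0.022 by edgeR). That call was lost without anti-PD1 replicate 1 (2.52, adjusted p = 0.740), without anti-PD1 replicate 2 (3.44, adjusted p = 0.127), and without anti-Lag3 replicate 2 (2.34, adjusted p = 0.333), and DESeq2 gave no adjusted p for it. Between anti-Lag3 and isotype the log2 fold change was 1.93 with a 95% interval from −0.30 to 4.17 (adjusted p = 0.867 by edgeR), an interval that holds both no change and a rise of many fold.

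*Il17a*, the neighbor of *Il17f* and the best known Th17 cytokine, had 2 reads in anti-PD1 replicate 2 and 0 in each of the other 5 samples. At the depths used, 3 reads are the smallest number taken as detected, and *Il17a* lay under it in all samples. In anti-PD1 replicate 1, with 42 reads of *Il17f*, no read of *Il17a* was counted. The transcripts of *Il17a* and *Il17f* share no run of 25 bases in the GENCODE annotation, so reads of one could not be counted for the other through such a run.

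*Il22*, which encodes a cytokine that acts on epithelial cells, had 1 and 0 reads with isotype, 8 and 7 with anti-PD1, and 6 and 1 with anti-Lag3. Both anti-PD1 samples were highest, and the anti-Lag3 and isotype samples overlapped at 1 read. Its log2 fold change between anti-PD1 and isotype was 3.63 (SE 1.54, 95% interval 0.52 to 6.75, adjusted p = 0.472 by edgeR), and it did not pass the test in any comparison. Without isotype replicate 2 the value was 2.69, and without isotype replicate 1 no read was left in the isotype group, so that no fold is given. *Iltifb* (chr10:118289629-118295038) is a near-identical copy of *Il22*. It shares 59.4% of all 25-base runs of *Il22* and 31.9% of those in the last 300 bases of *Il22*, so the reads of both genes are uncertain in their division. *Iltifb* had 0 and 0 reads with isotype, 8 and 7 with anti-PD1, and 4 and 6 with anti-Lag3.

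With the reads of *Il22* and *Iltifb* added together, a choice made after the data were seen, the log2 fold change between anti-PD1 and isotype was 4.63 (SE 1.14, adjusted p = 0.027 by edgeR), and 3 cytokines in place of 2 were called. The sum did not pass the test between anti-Lag3 and isotype (log2 fold change 3.66, adjusted p = 0.627). It did not pass between anti-PD1 and anti-Lag3 either (0.97, adjusted p = 0.914). Neither gene alone passed in any comparison.

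*Il21* has a partner on the opposite strand, *Gm12534*, annotated as an antisense RNA (chr3:37231333-37232469), with 469 exon bases in common. The shared bases lie outside the last exon of *Il21* (2768 bases), where 3′ reads of *Il21* are expected to fall, and the strand setting of the read counting is not given in the sources used here, so reads of the 2 genes may not be fully separated. *Gm12534* had 25 and 10 reads with isotype, 124 and 107 with anti-PD1, and 45 and 14 with anti-Lag3. The anti-PD1 samples were far above the other 4, and the anti-Lag3 and isotype samples overlapped. It rose with anti-PD1 relative to isotype (log2 fold change 2.73, SE 0.39, adjusted p = 1.5e-05 by edgeR) and relative to anti-Lag3 (2.11, SE 0.36, adjusted p = 0.0016). DESeq2 called neither, with an adjusted p of 0.277 for the first and none given for the second, and the second was lost without anti-PD1 replicate 1 (adjusted p = 0.112 by edgeR). In anti-Lag3 replicate 2, *Gm12534* had 14 reads and *Il21* 72, whereas in the anti-PD1 samples the 2 genes had nearly equal reads.

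**Figure D2:**
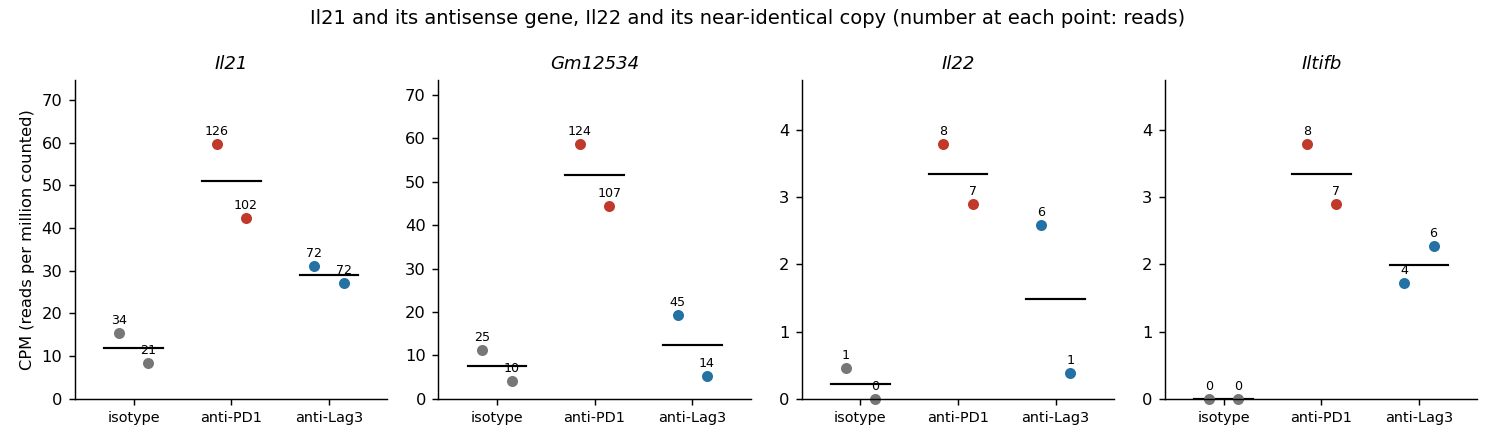
Levels in CPM (vertical axis, from 0, a scale for each panel) of *Il21*, its antisense gene *Gm12534*, *Il22*, and its near-identical copy *Iltifb* in the 6 samples, drawn as points with their reads above and group means as black bars. *Il21* and *Gm12534* were both highest with anti-PD1, but with anti-Lag3 both *Il21* samples (72 reads each) lay above isotype while *Gm12534* (45 and 14 reads) overlapped it.

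*Il2* was detected in all samples, at 9.50 and 5.99 CPM with isotype (21 and 15 reads), 23.2 and 12.0 with anti-PD1 (49 and 29 reads), and 10.8 and 14.0 with anti-Lag3 (25 and 37 reads). All 4 antibody samples were above both isotype samples, and the antibody groups overlapped. The mean was 7.75 ± 2.48, 17.6 ± 7.94, and 12.4 ± 2.26 CPM (SD, n = 2 each). *Il2* was 2.21-fold higher with anti-PD1 than with isotype (95% interval 1.23 to 3.97), with an unadjusted p of 0.0092 and an adjusted p of 0.311 by edgeR. Without anti-PD1 replicate 1 the log2 fold change fell from 1.14 to 0.58 (adjusted p = 0.931), so its size rested largely on that sample. With anti-Lag3 it was 1.54-fold higher than with isotype (0.847 to 2.81, adjusted p = 0.912 by edgeR), and between the antibodies the ratio was 1.43 (0.829 to 2.48, adjusted p = 0.903). *Ntan1*, on chromosome 16, shares 14.7% of all 25-base runs of *Il2* and 59.1% of those in the last 300 bases of *Il2*. Whether this affected the placement of *Il2* reads was not tested. *Ntan1* itself ran from 12.5 to 21.8 CPM over the 6 samples and did not pass in any comparison. *Adad1*, which overlaps *Il2* on the opposite strand, had 1 read over all samples.

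*Ifng*, the Th1 cytokine, was detected in all samples and did not separate the groups. Its level was 8.14 and 2.00 CPM with isotype (18 and 5 reads), 7.12 and 10.8 with anti-PD1 (15 and 26 reads), and 7.33 and 12.5 with anti-Lag3 (17 and 33 reads). The higher isotype sample lay above the lower sample of both antibody groups. The means of the antibody groups (8.94 ± 2.58 and 9.89 ± 3.63 CPM, SD, n = 2 each) were closer to each other than the replicates within either group. The fitted ratio was 1.75 with anti-PD1 (95% interval 0.812 to 3.77, adjusted p = 0.793 by edgeR), 1.91 with anti-Lag3 (0.897 to 4.05, adjusted p = 0.875), and 0.918 between anti-PD1 and anti-Lag3 (0.455 to 1.85, adjusted p = 0.989). The isotype samples set much of these values: the log2 fold change with anti-PD1 was 2.13 without isotype replicate 1 and 0.081 without isotype replicate 2, and with anti-Lag3 it was 2.25 and 0.20, none past the test. The intervals do not show that the level of *Ifng* was equal between groups. *Gm49751*, annotated on the same strand within *Ifng*, was not analysed here.

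*Il3* had 0 and 0 reads with isotype, 2 and 2 with anti-PD1, and 1 and 0 with anti-Lag3, all at or under the smallest number taken as detected. *Csf2*, *Il4*, and *Il13* had 0 reads in each of the 6 samples, 14203032 reads in all, which allows a mean level of up to 0.211 CPM for each. That limit is far below the level of *Il21* in every sample. Transcripts of these Th2 and myeloid growth factor genes were therefore not detectable at this depth. The last exon of *Csf2* shares 96 bases with the antisense gene *Gm12223*, which also had 0 reads.

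**Figure D3:**
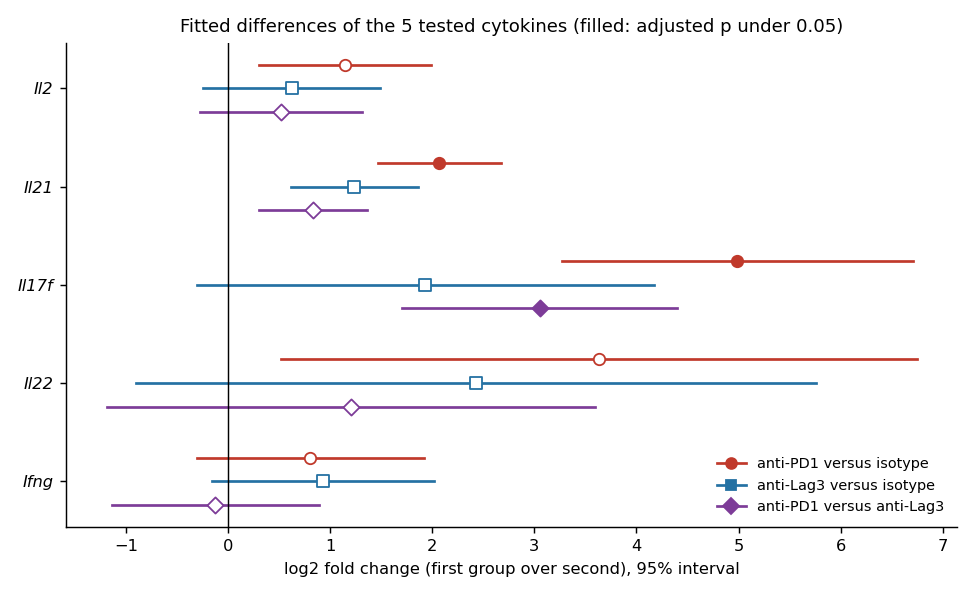
Fitted log2 fold changes (horizontal axis, first group over second) with 95% intervals from edgeR for the 5 tested cytokines (rows) in 3 comparisons, anti-PD1 with isotype (red circles), anti-Lag3 with isotype (blue squares), and anti-PD1 with anti-Lag3 (purple diamonds). Filled symbols, for *Il21* and *Il17f* with anti-PD1 over isotype and *Il17f* with anti-PD1 over anti-Lag3, had an adjusted p under 0.05, and the intervals of *Il22* are the widest.

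The same 5 genes were read in the deposited rlog values, which shrink genes with few reads toward a common level. On that scale, anti-PD1 minus isotype was 0.47 for *Il21*, 0.23 for *Il17f*, 0.13 for *Il2*, 0.06 for *Ifng*, and 0.05 for *Il22*. The order of the genes therefore differs from that of the fitted log2 fold changes, in which *Il17f* and *Il22* were above *Il21*. Limma on these values also called *Il21* and *Il17f* between anti-PD1 and isotype.

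Regulators of T helper cytokines were read from lists by lineage. These lists were chosen with earlier results of these data known, so the counts called in them are not independent of the data. Of 14 Th17 and Tfh regulators, 13 were tested and 7 rose with anti-PD1 relative to isotype by edgeR (*Rora*, *Stat3*, *Ahr*, *Irf4*, *Hif1a*, *Il23r*, and *Il1r1*), none fell, and the median log2 fold change was 0.65. Of all genes tested, 0.631% were called higher and the median was 0.0040. None of the 13 was called with anti-Lag3 (median 0.26), and 4 (*Rora*, *Stat3*, *Il23r*, and *Il1r1*) were higher with anti-PD1 than with anti-Lag3 (median 0.38), against 0.253% of all genes. *Il23r*, the receptor chain through which IL-23 sustains Th17 cells, was at 15.8 and 6.39 CPM with isotype, 69.3 and 58.0 with anti-PD1, and 24.6 and 10.6 with anti-Lag3 (log2 fold change of anti-PD1 over isotype 2.50, SE 0.33, adjusted p = 2.9e-06). The anti-PD1 samples did not overlap with any other, and the isotype and anti-Lag3 samples did.

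*Rora*, which encodes the Th17 factor RORα, was at 132 and 80.3 CPM with isotype, 298 and 271 with anti-PD1, and 145 and 126 with anti-Lag3 (log2 fold change of anti-PD1 over isotype 1.39, SE 0.16, adjusted p = 8.5e-08 by edgeR). *Il1r1*, the IL-1 receptor, was at 17.2 and 8.39, 43.6 and 52.2, and 27.2 and 13.2 CPM (log2 fold change 1.88, adjusted p = 0.00030). *Ahr*, a ligand-dependent factor needed for *Il22* in Th17 cells, had a log2 fold change of 1.42 (adjusted p = 0.0025), *Hif1a* of 0.70, *Stat3* (the factor downstream of IL-6, IL-21, and IL-23 receptors) of 0.64, and *Irf4* of 0.51, all at adjusted p under 0.05. The count of 7 fell to 4 without isotype replicate 2 and to 4 without anti-PD1 replicate 1. *Rora*, *Il23r*, and *Hif1a* were called in both of those fits, and *Il23r* was missed in DESeq2 (adjusted p = 0.052). The count of 4 between the antibodies was 0 in DESeq2, 2 in the newer quasi-likelihood method and with filterByExpr, 1 without anti-PD1 replicate 1, and 2 without anti-PD1 replicate 2.

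Of 10 Th1 regulators, 9 were tested, and 2 rose with anti-PD1 relative to isotype, against 0.631% of all genes tested. *Il12rb2*, the IL-12 receptor chain of Th1 cells, was at 16.7 and 12.8 CPM with isotype, 99.2 and 111 with anti-PD1, and 44.0 and 29.1 with anti-Lag3, with no overlap between the groups. Its log2 fold change was 2.80 with anti-PD1 (SE 0.24, adjusted p = 1.4e-10 by edgeR), 1.24 with anti-Lag3 (SE 0.26, adjusted p = 0.0495), and 1.56 between the 2 antibodies (SE 0.21, adjusted p = 2.4e-05). The call with anti-Lag3 was marginal, and only 4 of 12 other settings and 2 of 6 fits with a sample left out made it. *Stat4*, the factor downstream of IL-12, had a log2 fold change of 0.93 with anti-PD1 (SE 0.19, adjusted p = 0.0024), and this call was lost without isotype replicate 2 (0.64, adjusted p = 0.295) or anti-PD1 replicate 1 (0.84, adjusted p = 0.113). The median over the Th1 list was 0.20 with anti-PD1 and 0.21 with anti-Lag3. With anti-PD1, 5 of the 9 had a log2 fold change above 0. *Tbx21* (−0.24, adjusted p = 0.868 by edgeR) and *Eomes* (−1.90, adjusted p = 0.805) were lower and did not pass. *Eomes* had few reads, 5 and 7 with isotype and 1 and 2 with anti-PD1.

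Of 9 Th2 regulators, 7 were tested, and *Stat5a*, a factor downstream of IL-2, rose with anti-PD1 (log2 fold change 0.85, SE 0.16, adjusted p = 0.0016 by edgeR, against 0.631% of all genes called higher), a call lost without isotype replicate 2 (adjusted p = 0.137) or anti-PD1 replicate 1 (adjusted p = 0.069). The others of that list did not pass in any comparison, and its median was 0.13 with either antibody against isotype. With anti-PD1, 5 of the 7 had a log2 fold change above 0. The Th2-associated factor *Gata3* was lower, at 20.8 and 47.2 CPM with isotype and 12.3 and 19.1 with anti-PD1. Its log2 fold change was −1.14 (SE 0.34, adjusted p = 0.105 by edgeR). Of 20 transcription factors driven by the T cell receptor, 19 were tested, and 1 rose and 1 fell with anti-PD1, against 0.631% and 0.269% of all genes. *Bhlhe40* rose (0.69, adjusted p = 0.031) and *Nfatc1*, the inducible NFAT gene, fell with anti-PD1 (−0.60, SE 0.13, adjusted p = 0.0081 by edgeR). *Nfatc1* was at 201 and 243 CPM with isotype, 158 and 141 with anti-PD1, and 188 and 225 with anti-Lag3, so its direction was opposite to that of *Il21*. It was not called without isotype replicate 2 (adjusted p = 0.313) or anti-PD1 replicate 2 (adjusted p = 0.359). *Bhlhe40* was not called in DESeq2 (adjusted p = 0.182), without isotype replicate 2 (0.498), or without either anti-PD1 sample (0.329 and 0.182). *Nr4a3* itself was at 49.3 and 44.8 CPM with isotype, 29.4 and 29.8 with anti-PD1, and 41.8 and 37.4 with anti-Lag3, and its log2 fold change of −0.70 with anti-PD1 did not pass (adjusted p = 0.194 by edgeR).

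Of 21 other T cell cytokine genes, 14 were tested and none rose. *Lta* and *Ltb*, which encode the lymphotoxins of lymphoid tissue organization, fell with anti-PD1 relative to isotype, against 0.269% of all genes called lower. *Ltb* was at 48.4 and 59.9 CPM with isotype, 20.9 and 22.4 with anti-PD1, and 33.2 and 26.4 with anti-Lag3 (log2 fold change of anti-PD1 over isotype −1.36, SE 0.25, adjusted p = 0.00069 by edgeR). *Lta* was at 27.1 and 62.3, 8.07 and 18.6, and 37.5 and 35.5 CPM (−1.76, SE 0.32, adjusted p = 0.00077), and it was also lower with anti-PD1 than with anti-Lag3 (−1.40, adjusted p = 0.041), where 0.0589% of all genes were called lower. *Lta* was not called against isotype without isotype replicate 2 (−1.06, adjusted p = 0.363) or anti-PD1 replicate 1 (−1.32, adjusted p = 0.115), and *Ltb* not without isotype replicate 2 (adjusted p = 0.0501). The call of *Lta* between the antibodies was lost in DESeq2 (no adjusted p), limma-voom, limma on rlog values, the newer quasi-likelihood method, with filterByExpr, and without anti-PD1 replicate 1. B cells also express both genes. The summed B cell markers were at 23.2 to 26.2 CPM with isotype, 8.70 to 11.4 with anti-PD1, and 5.17 to 7.93 with anti-Lag3. With anti-Lag3, where these markers were lowest, neither *Lta* (log2 fold change −0.36, adjusted p = 0.930 by edgeR) nor *Ltb* (−0.93, adjusted p = 0.294) was called against isotype. The part of B cells was not tested.

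Of 18 receptor chains for the 10 cytokines, 13 were tested. None was called by edgeR in any of the 3 comparisons. The median log2 fold change of the 13 was 0.00042 with anti-PD1 and 0.30 with anti-Lag3, against 0.0040 and −1.6e-05 over all genes. With anti-Lag3, 12 of the 13 were above 0, most of them by less than their SE. The share of all genes above 0 is not given here.

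**Figure D4:**
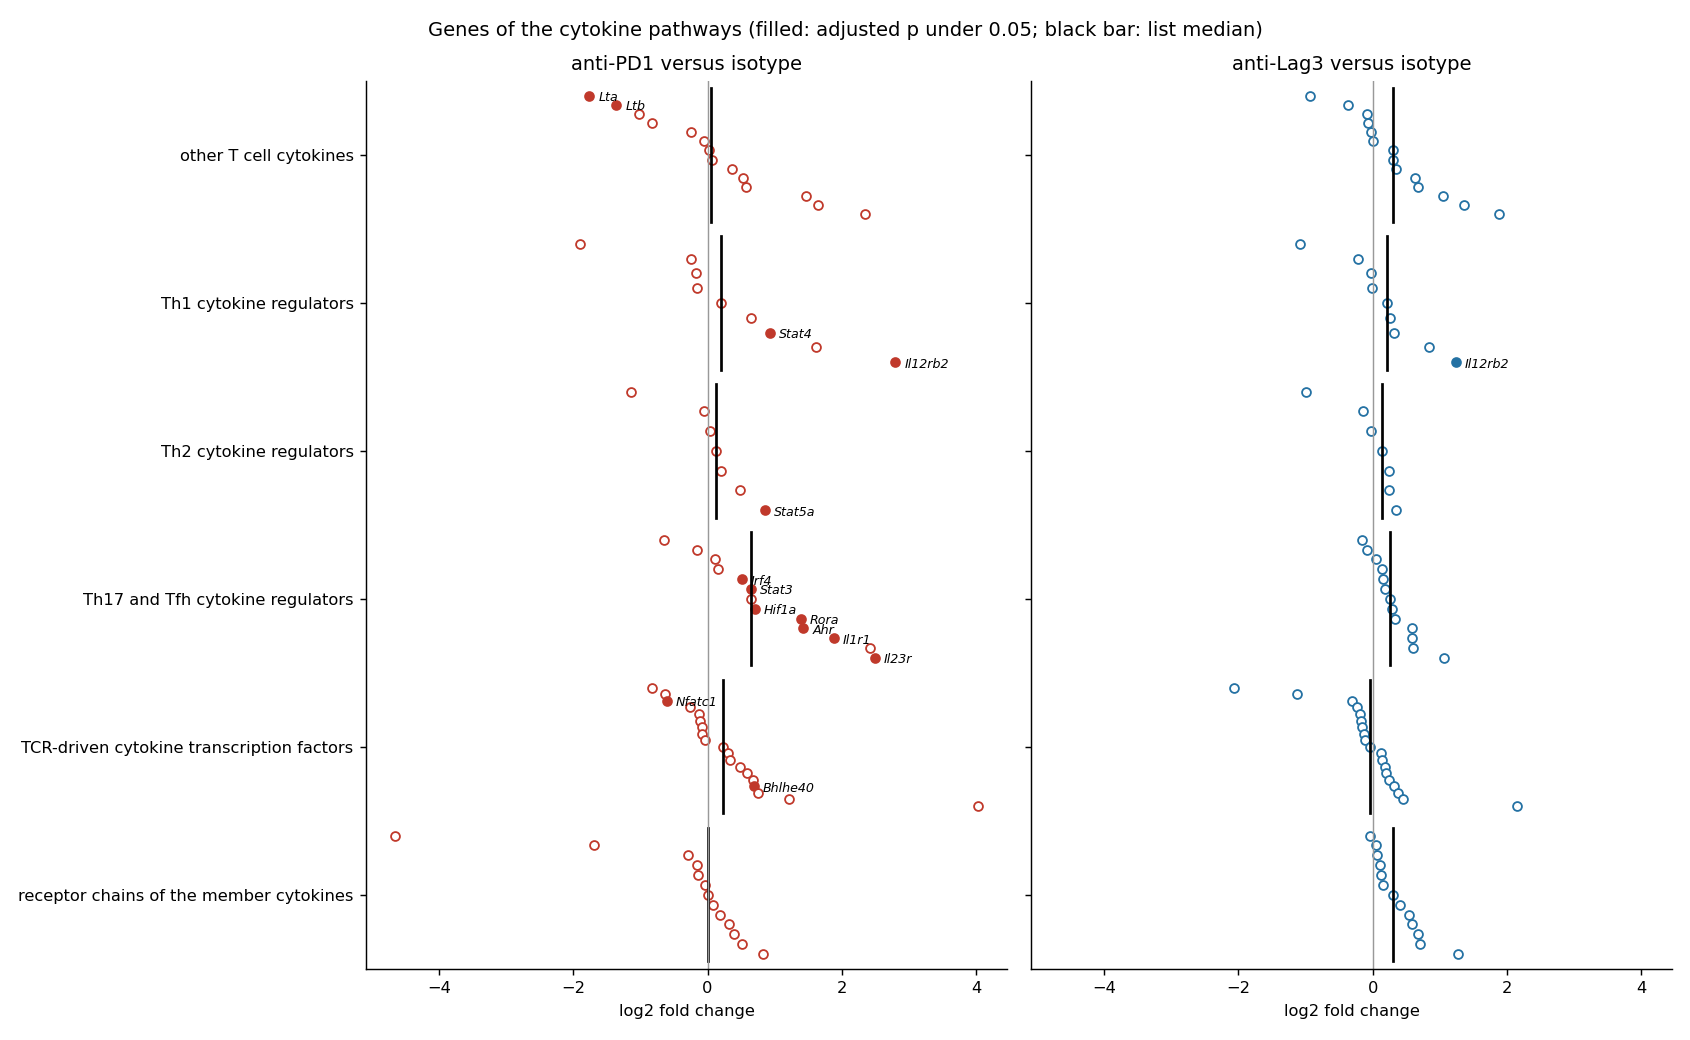
Log2 fold changes (horizontal axis, the same in both panels) of the tested genes in 6 lists of the cytokine pathways (rows) with anti-PD1 over isotype (left) and anti-Lag3 over isotype (right). Each point is a gene, spread vertically by rank within its list, filled and named where the adjusted p was under 0.05, and black bars are list medians, which were 0.65 and 0.26 for the Th17 and Tfh regulators.

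The calls were compared over all settings. *Il21* was called between anti-PD1 and isotype in each of the 6 fits with a sample left out, with log2 fold changes of 1.66 to 2.58, and in all 12 other settings on an unshrunken scale (2.06 to 2.11). *Il17f* was called in 5 of 6 and 11 of 12, with 4.16 to 8.17 and 4.84 to 5.16 and adjusted p-values from 1.7e-07 to 0.094. Leaving out the isotype sample with 2 reads of *Il17f* gave the value of 8.17, since the sample left has 0 reads. Between the antibodies, *Il17f* was called in 3 of 6 and 9 of 12, with adjusted p-values from 0.00077 to 0.740 where one was given.

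**Figure D5:**
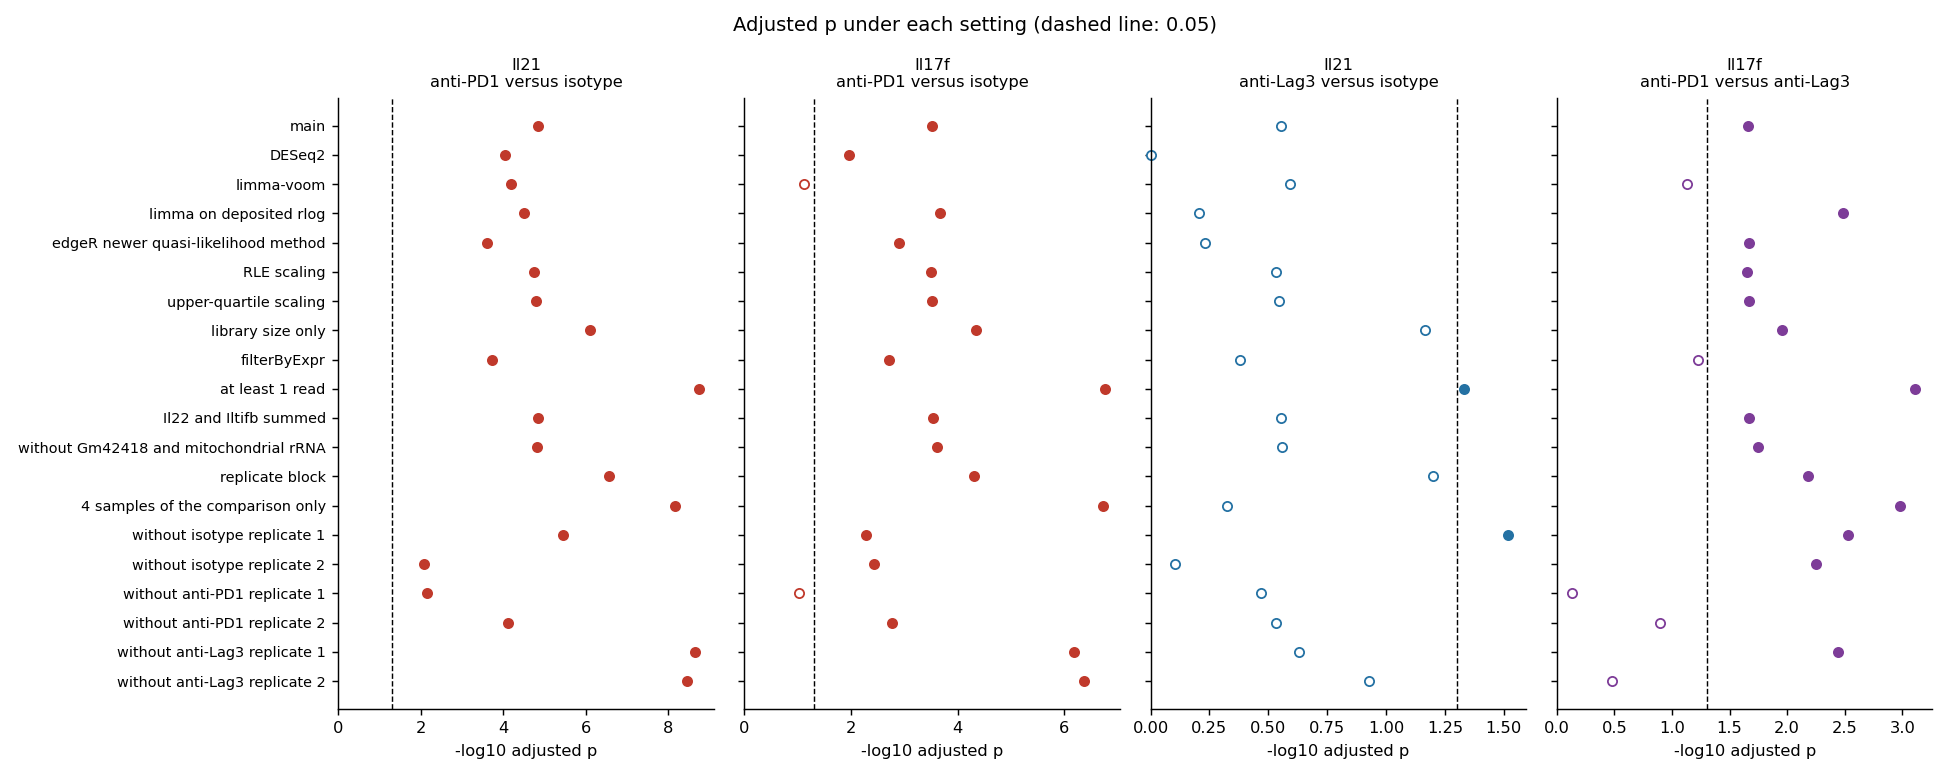
Adjusted p-values on a −log10 scale (horizontal axis, a scale for each panel) under each setting (rows) for *Il21* and *Il17f* with anti-PD1 over isotype, *Il21* with anti-Lag3 over isotype, and *Il17f* with anti-PD1 over anti-Lag3. The dashed line marks 0.05, and filled points lie past it. All points for *Il21* with anti-PD1 lie past the line, 2 do for *Il21* with anti-Lag3, and DESeq2 gave no value for *Il17f* between the antibodies.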

How the data were processed

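The samples were biological duplicates per the labels, 2 in each of 3 groups, and groups were taken from the labels. The authors made 3′ (QuantSeq) libraries, trimmed the reads, aligned them with STAR 2.5.2a to GRCm38 (mm10, per the labels) and assigned them to Ensembl genes with HTSeq-count. The strand setting and the annotation release are not given in the sources used here. The deposited counts are whole numbers without normalization, and the authors also deposited rlog values, a log2 scale made with DESeq2, used here as an alternative. The study's methods state that a further batch of a sample per group was left out by the authors as an outlier, and it was not analysed here.

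A gene was tested if its reads summed to at least 10 over the samples (11877 of 47643), and all 6 samples were fitted together in edgeR 4.0.16 (R 4.3.3) with TMM scaling (factors 0.961 to 1.02) and the quasi-likelihood test, with Benjamini-Hochberg adjustment and a threshold of 0.05. The common dispersion was 0.0160, and the prior was worth 37.5 degrees of freedom, so the spread of each gene came largely from all genes. Intervals of fitted values are 95% intervals of the same fit, and ratios of summed reads have exact (conditional binomial) intervals. A count of 3 reads was taken as the smallest detected number. The chi-square per degree of freedom between replicates was 2.65 to 3.29, above sampling noise, and they were kept as separate samples. The p-values thus rest on 2 samples per group and on a spread drawn mostly from all genes. Identifiers were matched to symbols in GENCODE annotation of GRCm38 (47224 of 47643), which also gave positions, overlaps, and shared 25-base runs. Promoters were read from RefSeq, using the 250 bases before the start.

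The 10 cytokines and the gene lists were chosen with earlier results of these data known. The text names all 10, the genes of each list that passed the test in any comparison, the genes annotated as overlapping a cytokine, and *Nr4a3*. It also names *Iltifb* and *Ntan1*, which share the most sequence with a cytokine among the genes that do not overlap it. *Gata3*, *Tbx21*, and *Eomes* are named although they did not pass. Alternatives were DESeq2 1.42.0, limma-voom and limma on rlog values (limma 3.58.1), the newer quasi-likelihood method of edgeR, further scalings and filters, a threshold of 0.1, fits of 4 samples, each sample left out, the replicate number as a block, and, added after the data were seen, *Il22* and *Iltifb* summed and the settings of the pathway genes. The edgeR, DESeq2, and voom scripts were tested on simulated counts with known changes. Figures were drawn with matplotlib 3.10.9.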

Additional observations from a re-analysis of the deposited data

How the results depend on the processing

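The number of the 10 cytokines called between anti-PD1 and isotype was 2 and fell to 1 in limma-voom, where *Il17f* was lost, and it ranged from 1 to 2 with a sample left out. Between anti-Lag3 and isotype it was 0 and rose to 1 (*Il21*) with every gene of at least 1 read, with a range of 0 to 1 with a sample left out. Between the antibodies it was 1 (*Il17f*) and fell to 0 in DESeq2, limma-voom, and with filterByExpr, with a range of 0 to 1 with a sample left out. Directions turned only in values that had not passed the test: the log2 fold change of *Il2* between anti-PD1 and anti-Lag3 ran from −0.039 (without anti-PD1 replicate 1) to 0.94 with a sample left out, that of *Ifng* from −0.44 to 0.31 (0.12 without anti-PD1 replicate 1 and 0.31 without anti-Lag3 replicate 2), and that of *Gm12534* between anti-Lag3 and isotype from −0.57 (without anti-Lag3 replicate 1) to 1.55.

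Over all genes, 107 were called between anti-PD1 and isotype. The count was 167 at an adjusted p under 0.1, 175 with the 4 samples of the comparison, and 51 to 185 with a sample left out. Between anti-Lag3 and isotype it was 5, against 1 in DESeq2, 2 in limma on rlog values, 0 in the newer quasi-likelihood method, with filterByExpr, and with 4 samples, 8 with library size only, 20 with every gene of at least 1 read, 3 without *Gm42418* and mitochondrial ribosomal RNA, and 0 to 19 with a sample left out. Between the antibodies it was 37, against 16 in DESeq2, 58 with every gene of at least 1 read, and 7 to 59 with a sample left out. The causes were not tested. DESeq2 adjusted p-values that were not given stayed missing, and filterByExpr removed *Il22*, which has no value there.

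The study's methods describe a left-out batch of a sample per group that was sorted and processed together, but neither they nor the labels say that the replicate number of the samples used here marks a batch. The deviations of same-numbered samples had correlations of −0.010 to 0.020 over 11877 genes, so the pairing was not taken as given, and a batch tied to the number was not otherwise tested. With the replicate number as a block, the counts of calls rose to 144, 6, and 46 in the 3 comparisons. The called genes included 2, 0, and 1 cytokines, the same cytokines as without the block. Depth limits the cytokines with few reads most: 3 reads amount to 1.13 to 1.42 CPM, so *Il3*, *Il17a*, *Csf2*, *Il4*, and *Il13* could not be compared, and *Il22* and *Il17f* had at most 2 reads in any isotype sample. With 2 samples per group, a single sample decided several calls.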
